A study of Mus musculus with 6 samples.

Results

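The microRNA genes described here lie in the imprinted Dlk1-Dio3 domain of mouse chromosome 12. The 46 genes from Mir770 to Mir410 were chosen by name, and a gene was used where a probe set of the array carried its symbol alone. That held for 39 of the 46, among 19938 genes measured, and 2 of the 39 (Mir299a and Mir496a) were matched through an older symbol. Each of the 39 had a single probe set, so the rule of taking the brightest one chose nothing. Of the other 7, Mir433 and Mir410 share a probe set with a longer transcript and are given separately, and Mir770, Mir493, Mir758, Mir654 and Mir544 were not analysed here.

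The cells were mouse iPSCs (induced pluripotent stem cells, that is, fibroblasts reprogrammed to a stem cell state), and their total RNA was read on 6 Affymetrix gene arrays, 3 labelled primed and 3 labelled naive. Primed cells were grown in medium conditioned by mouse embryonic fibroblasts with basic FGF at 8 ng/ml, with a feeder layer or Matrigel beneath them. Naive cells were grown in serum-containing medium (15% FBS) with 1000 U/ml of the cytokine LIF. The titles give adult dermal fibroblasts as the origin of the primed cells and embryonic fibroblasts as that of the naive cells, whereas the source label gives embryonic fibroblasts for all, so that cell line, origin and culture state cannot be told apart. The arrays of a group are called biological replicates but their source is not stated, and a p-value here covers the scatter among these samples, which may be technical. Strain, clone number and passage were not used here.

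Dlk1-Dio3 is a domain in which the parental chromosomes are used differently. The non-coding RNAs Meg3, Rian and Mirg, with the microRNAs and small nucleolar RNAs that lie in and between them, are transcribed in a single direction from the maternal chromosome, while Dlk1, Rtl1 and Dio3 are expressed from the paternal one. A differentially methylated region between Dlk1 and Meg3 sets this pattern. In mouse iPSCs the maternal RNAs are known to be kept in some lines and silenced in others, and lines that silenced them contributed poorly to mice. A microRNA is cut from a hairpin in a long primary transcript and pairs with target mRNAs mainly through its seed, bases 2 to 8. The probe sets are annotated to the hairpin genes and total RNA was used, so primary transcript, hairpin and mature microRNA cannot be told apart here, and neither can fewer expressing cells and less RNA per cell.

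The genes fall in 3 stretches. The proximal stretch runs from Mir673 to Mir136, and its later genes lie opposite Rtl1 or beside it (8 genes measured). The hairpin of Mir673 starts at base 109571990 (GRCm38.p6), well before that of the next measured gene, Mir337, at base 109585789. Mir341 and Mir370 lie within Rian. The distal stretch, from Mir379 to Mir369 among the genes measured (29 of the 39), is the large array of hairpins before and within Mirg. Deletion of that distal array in mice is known to disturb neonatal metabolism and to raise anxiety-like behaviour.

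The mature sequences below come from the 8 genes with the largest differences between the groups, from Mir376b, which shares a seed with Mir376c, and, for contrast, from Mir673, the gene with the smallest difference. They were taken from RefSeq (GRCm38.p6, plus strand of chromosome 12) and are written 5′ to 3′ with the seed in capitals.
mmu-miR-369-5p: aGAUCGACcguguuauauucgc
mmu-miR-369-3p: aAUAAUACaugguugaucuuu
mmu-miR-379-5p: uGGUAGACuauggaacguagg
mmu-miR-379-3p: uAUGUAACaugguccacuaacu
mmu-miR-411-5p: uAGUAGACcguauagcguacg
mmu-miR-411-3p: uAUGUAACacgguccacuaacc
mmu-miR-380-3p: uAUGUAGUaugguccacaucuu
mmu-miR-543-3p: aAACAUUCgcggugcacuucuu
mmu-miR-127-3p: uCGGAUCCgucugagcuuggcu
mmu-miR-377-3p: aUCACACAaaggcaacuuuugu
mmu-miR-376c-5p: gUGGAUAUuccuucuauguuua
mmu-miR-376b-5p: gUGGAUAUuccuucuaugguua
mmu-miR-673-5p: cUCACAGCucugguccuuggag
mmu-miR-673-3p: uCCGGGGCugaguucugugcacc
RefSeq held 74 mature sequences for the 39 genes, with 72 different seeds. The seed AUGUAAC is shared by miR-379-3p and miR-411-3p, whose hairpins are neighbours, and UGGAUAU by miR-376c-5p and miR-376b-5p. No other seed occurs in more than 1 of the 74, so the listed strands carry almost as many seeds as there are strands.

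Cell type markers were read first, with a gene called higher or lower in primed cells at an adjusted p under 0.05 (limma over 19938 genes, of which 44.5% passed) and values in brackets giving primed minus naive on the log2 scale. The pluripotency markers Pou5f1, Sox2, Nanog, Sall4, Lin28a, Tdgf1, Utf1 and Zfp296 were all above background, a level set from genes for odorant and pheromone receptors, on the 6 arrays, and 6 of the 8 were lower in primed cells, led by Pou5f1 (-1.06) and Zfp296 (-1.04). State markers did not follow the labels as a set. Of 10 naive markers 5 were lower in primed cells, led by Dppa3 (-2.81), and 2 were higher, Esrrb (2.98) and Nr0b1 (2.29). Zfp42 and Prdm14 were in background in both groups. Of 8 primed markers 3 were higher, Car14 (2.11), Otx2 (0.92) and Zic2 (0.64), and 4 were lower, led by Fgf5 (-1.71) and Lef1 (-1.38). Of 8 neural markers 7 were higher in primed cells, led by Pax6 (2.29). The mean level over the neural list was 9.25 to 9.36 on primed and 8.53 to 8.56 on naive arrays.

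Feeder layers consist of fibroblasts, whose markers moved in both directions. Of 14 fibroblast markers 3 were higher in primed cells, led by Dcn (2.89), and 6 lower, led by Col1a1 (-0.76) and Twist1 (-0.49), and 5 did not pass. Their mean level was 8.10 to 8.14 on primed and 8.05 to 8.09 on naive arrays, and Lum and Postn were in background on all 6 arrays. The part of fibroblast or neural RNA in the difference of the microRNA genes was not tested.

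All 39 microRNA genes were lower in primed than in naive cells (limma, adjusted p under 0.05 over 19938 genes), with differences of -2.91 to -0.24 (primed minus naive on the log2 scale of RMA values, a negative value being a lower level in primed cells). Over all genes tested, 22.7% were lower in primed cells by the same test and 21.8% were higher. On the 6 arrays no primed value of any of the 39 reached a naive value of the same gene, an arrangement found in 27% of all genes. The median difference was -1.32 over the 39 and 0.00 over all genes. Of the 39, 28 were lower by at least 2-fold with an adjusted p under 0.05, against 1.84% of all genes. These genes were taken up with their lower level in primed cells already known, so the counts and p-values describe them and are no independent evidence.

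**Figure D1:**
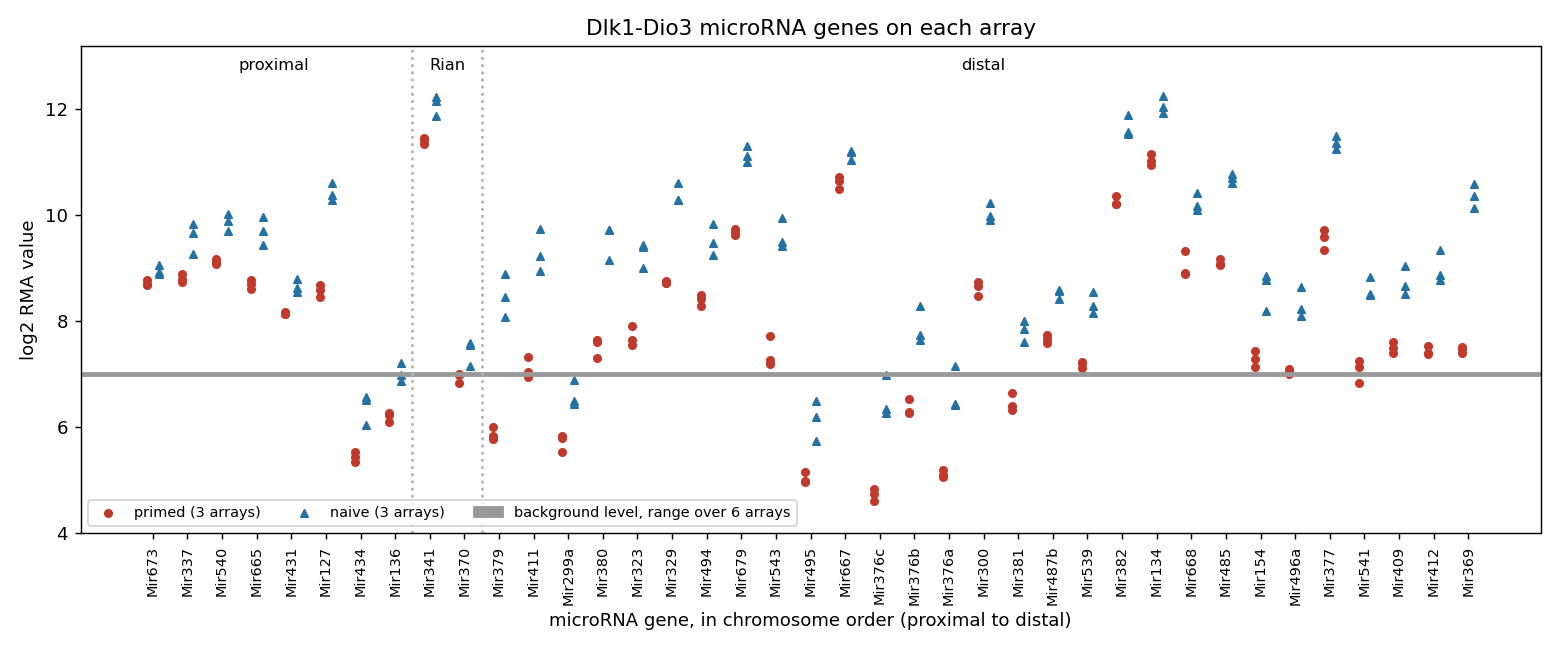
Log2 RMA values of 39 microRNA genes of the Dlk1-Dio3 domain in chromosome order; points are the 3 primed arrays (circles, left) and the 3 naive arrays (triangles, right), and the grey band is the range of the background level over the arrays, 6.96 to 7.03. For each gene the circles lie below the triangles, with the smallest gap (0.11) at Mir673.

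Signal was read against background, since the deposited table carries no detection calls. On each array, background was taken as the 95th percentile of 1190 genes for odorant and pheromone receptors, which fell between 6.96 and 7.02 on primed and between 6.98 and 7.03 on naive arrays. By this measure 27 of the 39 genes were above background on every primed array and 33 on every naive array. Mir379, Mir376b and Mir381 were above it on every naive array and on no primed array. Mir434, Mir299a, Mir495 and Mir376c were within background on all 6 arrays, and yet each was lower on every primed array than on any naive array. Among the other microRNA genes of the array 153 of 256 lay within background in both groups, and their median was 6.26 to 6.45 on primed and 6.38 to 6.42 on naive arrays. Array values understate the differences of dim probe sets, and the values of different probe sets are not a ranking of abundance.

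Mir369, near the distal end, showed the largest difference. Its values were 7.51, 7.47 and 7.39 on primed arrays, against 10.37, 10.14 and 10.58 on naive arrays. In human cells miR-369-3p has been shown to recruit Argonaute to an AU-rich element and activate translation on cell cycle arrest. The difference was -2.91 (SE 0.09, limma adjusted p = 1.1e-09), and the lowest naive array stood 2.63 above the highest primed array.

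At the other end of the distal stretch the neighbours Mir379 and Mir411, which share a 3′ arm seed, were among the largest differences too. Mir379 had 5.999, 5.78 and 5.82 on primed arrays, against 8.09, 8.45 and 8.90 on naive arrays, a difference of -2.61 (SE 0.15, limma adjusted p = 1.3e-07). Mir411 had 6.95, 7.04 and 7.32 on primed arrays, against 8.95, 9.24 and 9.73 on naive arrays, a difference of -2.20. Both had their highest value on naive replicate 3 and their lowest naive value on replicate 1, and in both the groups were well apart.

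Mir380 and Mir543 lie in the same neighbourhood. The values of Mir380 were 7.65, 7.60 and 7.31 on primed arrays, against 9.16, 9.73 and 9.72 on naive arrays (difference -2.02). For Mir543 they were 7.72, 7.20 and 7.27 on primed arrays, against 9.499, 9.42 and 9.96 on naive arrays (difference -2.23). Primed replicate 1 was the highest primed array for both genes and lay far under the lowest naive array.

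Mir323 and Mir329 lie between Mir380 and Mir543. Mir323 gave 7.91, 7.65 and 7.55 on primed arrays, against 8.996, 9.40 and 9.44 on naive arrays (difference -1.57). Mir329 gave 8.73, 8.72 and 8.75 on primed arrays, against 10.29, 10.30 and 10.61 on naive arrays (difference -1.67), with an SD of 0.015 over the primed arrays (n = 3), the smallest of the 39. Blocking of miR-329 and miR-495 is known to promote vessel growth after arterial occlusion in mice. The signal of Mir679 was 9.74, 9.69 and 9.62 on primed arrays, against 11.01, 11.12 and 11.32 on naive arrays (difference -1.47), and its probe set was among the 6 brightest of the 39.

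The Mir376 genes are close relatives whose hairpins are known targets of A-to-I editing, a base change by the ADAR enzymes that can alter the seed. Mir376c had 4.83, 4.60 and 4.75 on primed arrays, against 6.35, 6.28 and 6.98 on naive arrays (difference -1.81). Mir376b had 6.53, 6.26 and 6.28 on primed arrays, against 7.65, 7.73 and 8.29 on naive arrays (difference -1.53). Mir376a had 5.09, 5.05 and 5.19 on primed arrays, against 6.42, 6.43 and 7.15 on naive arrays (difference -1.55). In all of them naive replicate 3 stood above the other two naive arrays, by more than those differed from each other. Mir376c and Mir376a, with Mir495, gave the dimmest signals of the 39.

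Further along, Mir485 had 9.17, 9.07 and 9.08 on primed arrays, against 10.70, 10.61 and 10.78 on naive arrays, a difference of -1.59 (SE 0.06, limma adjusted p = 3.6e-09), with SDs of 0.054 over primed and 0.085 over naive arrays (n = 3 each). Mir377 had 9.72, 9.58 and 9.35 on primed arrays, against 11.25, 11.37 and 11.50 on naive arrays (difference -1.83). Both were far above background in either group, so that their differences do not rest on dim signal. Mir541 showed 7.13, 7.24 and 6.83 on primed arrays, against 8.51, 8.49 and 8.83 on naive arrays (difference -1.55). Mir412 showed 7.39, 7.38 and 7.54 on primed arrays, against 8.87, 8.79 and 9.34 on naive arrays (difference -1.56). All naive arrays were above background for both genes, whereas on primed arrays Mir541 straddled it and Mir412 was just above it.

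Mir134 has been studied in stem cells and neurons. Its microRNA was shown to favour differentiation of mouse embryonic stem cells, with Nanog and Sox2 among its targets, and to limit dendritic spine size in rat neurons. Its values were 11.16, 11.02 and 10.95 on primed arrays, against 12.04, 11.93 and 12.26 on naive arrays, a difference of -1.04 (SE 0.08, limma adjusted p = 1.4e-06). The nearby Mir382 had 10.37, 10.21 and 10.21 on primed arrays, against 11.58, 11.54 and 11.89 on naive arrays (difference -1.41). Both kept a strong signal on all 3 primed arrays, and the groups did not overlap. The mRNAs of both targets named above were lower in primed cells (-0.61 for Nanog and -0.52 for Sox2), as were most of the pluripotency markers read here. Any effect of miR-134 on them was not tested.

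Mir667 showed a smaller difference than its neighbours. Its values were 10.50, 10.72 and 10.65 on primed arrays, against 11.20, 11.04 and 11.22 on naive arrays (difference -0.53, SE 0.07, limma adjusted p = 7.5e-05). It lies between Mir495 (-1.11) and Mir376c (-1.81), and it was the smallest difference of the distal stretch, followed by Mir487b (-0.86) and Mir299a (-0.89). Mir666, a gene of the same stretch that is not among the 46, also showed a small difference (-0.37, limma adjusted p = 2.5e-04) next to Mir543 (-2.23). These gaps between neighbouring genes are larger than the standard errors, though they were not tested. The distal genes not yet named with a value, Mir494, Mir300, Mir381, Mir539, Mir668, Mir154, Mir496a and Mir409, had differences of -1.42 (Mir300) to -1.12 (Mir494).

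In the proximal stretch the differences were smaller apart from that of Mir127. This gene lies opposite Rtl1, whose mRNA its microRNA is known to cleave. Mir127 had 8.68, 8.59 and 8.45 on primed arrays, against 10.38, 10.29 and 10.61 on naive arrays, a difference of -1.85 (SE 0.09, limma adjusted p = 1.8e-08). The probe set that Mir433, its neighbour, shares with the Rtl1 antisense transcript 6430411K18Rik had 8.54, 8.63 and 8.48 on primed arrays, against 10.34, 10.31 and 10.58 on naive arrays (difference -1.86 in a fit over all 35556 probe sets, where 17.2% were lower in primed cells). The other proximal genes Mir665 (-1.01), Mir434 (-0.94), Mir136 (-0.83), Mir337 (-0.78), Mir540 (-0.75), Mir431 (-0.51) and Mir673 (-0.24) had smaller differences. Mir673 carried the weakest call of the 39 (limma adjusted p = 0.0063), which was lost when arrays were centred on other microRNA genes (difference -0.21, adjusted p = 0.073).

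Within Rian, Mir341 gave the brightest probe set of the 39. Its values were 11.46, 11.43 and 11.34 on primed arrays, against 11.87, 12.16 and 12.24 on naive arrays (difference -0.68, SE 0.09, limma adjusted p = 5.2e-05). Mir370, at the edge of background, differed by -0.49 (limma adjusted p = 0.002).

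**Figure D2:**
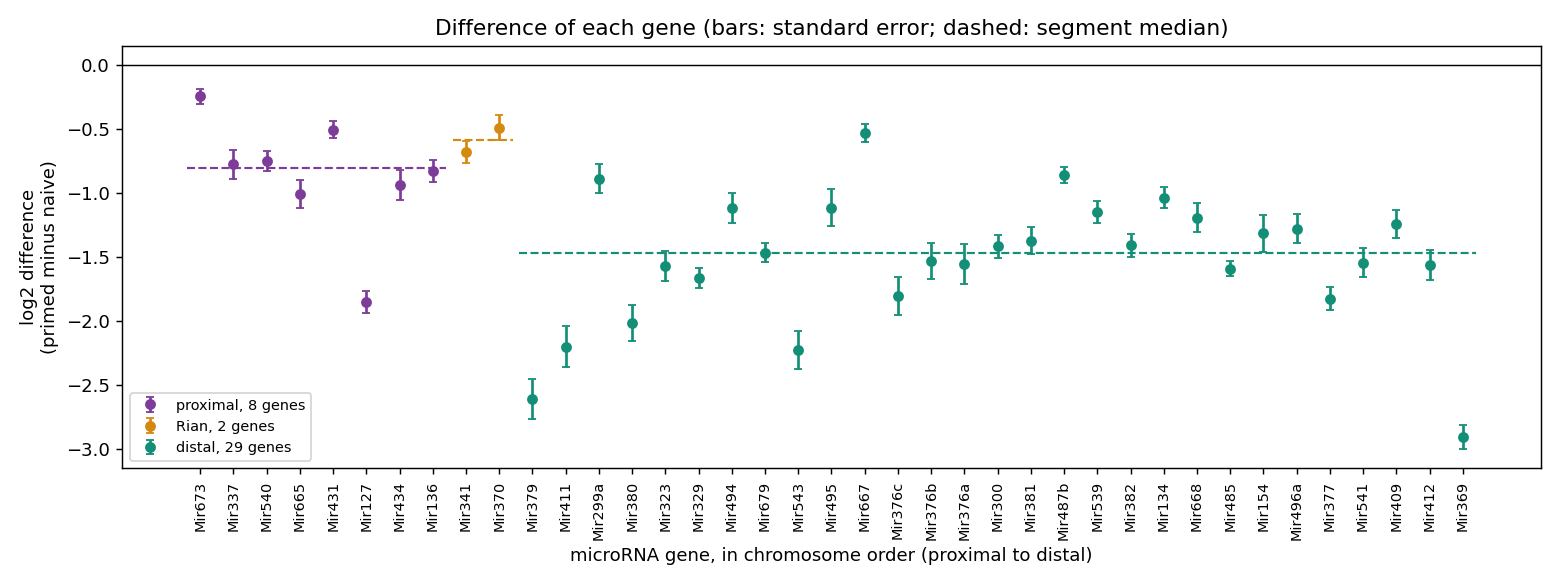
Log2 difference (primed minus naive) of each of the 39 genes in chromosome order, with its standard error; dashed lines are the medians of the proximal (-0.80), Rian (-0.58) and distal (-1.47) stretches. All points lie under 0, and Mir127 stands apart from the other proximal genes shown. The shared probe set of its neighbour Mir433 (-1.86) is not shown.

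By position, then, the median difference was -0.80 over the 8 proximal genes, -0.58 over the 2 genes in Rian and -1.47 over the 29 distal genes. A fall of at least 2-fold was called in 2 of the 8 proximal genes, 0 of the 2 Rian genes and 26 of the 29 distal genes. The median level of the distal genes was 7.39 to 7.51 on primed and 8.95 to 9.44 on naive arrays, and that of the proximal genes 8.58 to 8.65 on primed and 9.08 to 9.45 on naive arrays. Inside the distal stretch the medians were -1.62 from Mir379 to Mir495 (10 genes), -1.39 from Mir667 to Mir134 (10 genes) and -1.55 from Mir668 to Mir369 (9 genes). Across genes the Spearman correlation of order with the difference was -0.40 over the 39 and 0.11 within the distal 29. These are descriptions of genes that share 6 arrays and possibly a transcript, and the contrast between stretches was not tested.

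The maternal RNAs are thought to be made largely as 1 long unit that begins at Meg3, so the Meg3 promoter is shown. The window runs from 250 bases before to 50 after a RefSeq start (GRCm38.p6, chr12:109540746-109541045, plus strand). It is 1 of 2 such windows held for Meg3, and the other is not shown. Capitals mark 2 motifs, TGACGTCA, the cyclic AMP response element, and TATAAA, the TATA box, each searched on both strands.
Meg3 promoter: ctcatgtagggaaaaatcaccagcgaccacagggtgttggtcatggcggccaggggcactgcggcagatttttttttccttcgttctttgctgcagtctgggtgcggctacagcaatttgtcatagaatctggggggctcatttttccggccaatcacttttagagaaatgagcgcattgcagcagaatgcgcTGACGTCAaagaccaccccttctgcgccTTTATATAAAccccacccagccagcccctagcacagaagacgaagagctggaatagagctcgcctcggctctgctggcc
TGACGTCA reads the same on both strands and occurs once. TATAAA occurs on each strand in 2 matches that overlap by their ends and form a single run. Of 32851 windows of this length, 1.79% hold TGACGTCA and 13.6% hold TATAAA on either strand. A match describes letters, and no binding was measured.

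The long RNAs of the domain went the same way. Meg3 had 12.68, 12.64 and 12.61 on primed arrays, against 13.03, 13.04 and 13.27 on naive arrays (difference -0.47, SE 0.07, limma adjusted p = 1.6e-04). Rian had 9.05, 8.98 and 8.76 on primed arrays, against 10.38, 10.54 and 10.70 on naive arrays (difference -1.61). The probe set shared by Mirg and Mir410 had 10.65, 10.57 and 10.61 on primed arrays, against 11.84, 11.74 and 12.003 on naive arrays (difference -1.25 in the fit over all probe sets). Set beside the distal median of -1.47, Rian and the Mirg probe set had differences of like size and the bright Meg3 probe set a smaller one. Mir341 (-0.68) and Mir370 (-0.49), which lie within Rian, had smaller differences than Rian itself. Of 3 small nucleolar RNA genes in the domain, DQ267101 (-1.38) and AF357341 (-1.06) were in background on all primed arrays, and DQ267102 (-0.26), with values above 13 in both groups, was lower by a small margin.

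The paternally expressed genes were lower in primed cells too. Dlk1, a membrane protein of the Notch ligand family, had 9.55, 9.64 and 9.40 on primed arrays, against 11.23, 11.10 and 11.04 on naive arrays (difference -1.59, limma adjusted p = 1.6e-08). Rtl1, a gene of retrotransposon origin needed in the placenta, had 7.86, 7.67 and 7.84 on primed arrays, against 8.47, 7.98 and 8.60 on naive arrays (difference -0.55, limma adjusted p = 0.0042). Dio3, the enzyme that inactivates thyroid hormone, lay at background, with 6.64, 6.83 and 6.77 on primed arrays, against 6.99, 7.09 and 6.97 on naive arrays (difference -0.27, limma adjusted p = 0.0043). Genes known from either parental chromosome were thus lower in primed cells. Any effect of the microRNA genes opposite Rtl1 on its mRNA was not tested.

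Genes just outside the domain differed in both directions. Of the 4 measured genes on each side, 3 were higher in primed cells, Begain (0.33), Ppp2r5c (0.29) and Dync1h1 (0.35), and 3 were lower, Slc25a47 (-0.22), Wdr25 (-0.35) and Hsp90aa1 (-0.38). Wars (0.13) and 1700001K19Rik (-0.08) did not pass. All 8 differed by less than the distal median, and their own signs were mixed.

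Other microRNA genes of the array serve as the nearest comparison, since their probe sets are of the same kind. Of 256 such genes 34 (13.3%) were lower and 22 higher in primed cells, and their median difference was -0.01. Within background in both groups were 153 of the 256, against 4 of the 39, so this share and median come in large part from dim probe sets. The most changed of the 256 were Mir367 (-2.23), Mir302a (-2.15), Mir302c (-1.89) and Mir302d (-1.85), all of the miR-302 cluster of pluripotent cells. In that cluster 5 of 5 measured genes were lower in primed cells. Outside it, Mir363 (-1.55), Mir297b (-1.37), Mir421 (-1.13), Mir106a (-1.06), Mir19b-2 (-0.96) and Mir20b (-0.91) were also among the lower genes. Of these, Mir297b and Mir20b were in background on all primed arrays and Mir421 on all 6 arrays. In the miR-17 to 92 cluster 4 of 5 were higher in primed cells, led by Mir20a (0.52) and Mir19b-1 (0.42). Mir20a, Mir19a and Mir17 were within background in both groups, so that 2 of the 4 calls rest on such probe sets. None of 9 let-7 genes, 3 genes of the miR-106b to 25 cluster and 3 of the miR-183 cluster passed (limma, adjusted p under 0.05), but 6 of the let-7 genes and all 3 of the miR-183 cluster were within background in both groups. Among 12 microRNA genes of muscle, blood and pancreas, of which 11 were within background in both groups, Mir150 alone passed (0.28).

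**Figure D3:**
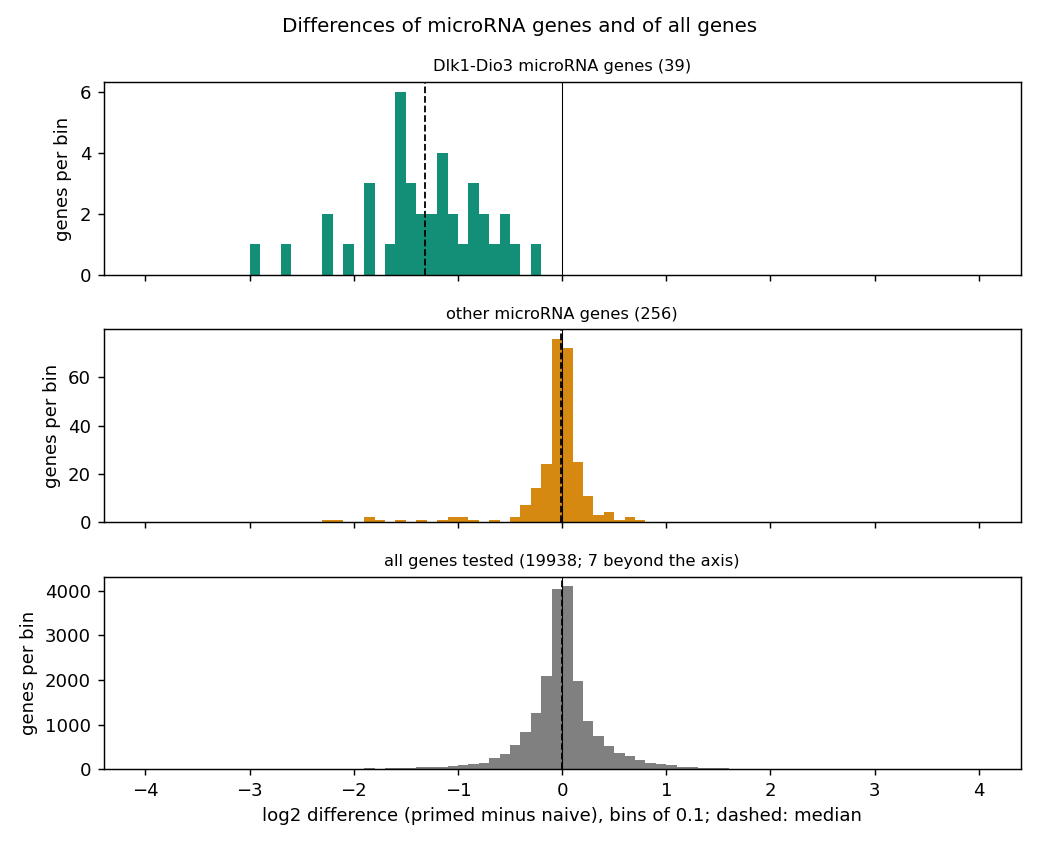
Number of genes per bin of 0.1 of log2 difference (primed minus naive) for the 39 Dlk1-Dio3 microRNA genes, 256 other microRNA genes and 19938 genes; the dashed lines are medians (-1.32, -0.01 and 0.00), and 7 genes lie beyond the lowest panel's axis. The 39 genes all lie left of 0. Of the 256 other microRNA genes 153 were within background in both groups, against 4 of the 39.

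Signal and base composition differed among the 39. The percentage of G and C in the hairpin ran from 29.1 in Mir376c to 62.0 in Mir667. Both hairpins (RefSeq, GRCm38.p6, plus strand, chr12:109722718-109722803 and chr12:109720006-109720097) are shown with the mature strands that RefSeq lists in capitals, as the extremes of composition.
Mir376c: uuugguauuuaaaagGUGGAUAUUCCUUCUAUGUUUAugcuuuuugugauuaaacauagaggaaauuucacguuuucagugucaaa
Mir667: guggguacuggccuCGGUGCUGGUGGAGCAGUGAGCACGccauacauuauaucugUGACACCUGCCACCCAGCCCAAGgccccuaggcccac
Hairpins richer in G and C gave brighter probe sets, with a Spearman correlation of 0.56 across the 39 genes and 0.65 across 219 other microRNA genes with a RefSeq hairpin. The median percentage was 55.2 in the proximal and 42.3 in the distal stretch, so composition moved with position, and its correlation with the difference was 0.42 over the 39 and 0.11 within the distal 29. The part of composition in the contrast between stretches was not tested. The correlation of the mean level with the difference was 0.01 across the 39. Ordered by mean level over all arrays, the 13 dimmest genes had a median difference of -1.28, the next 13 of -1.32 and the 13 brightest of -1.41.

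**Figure D4:**
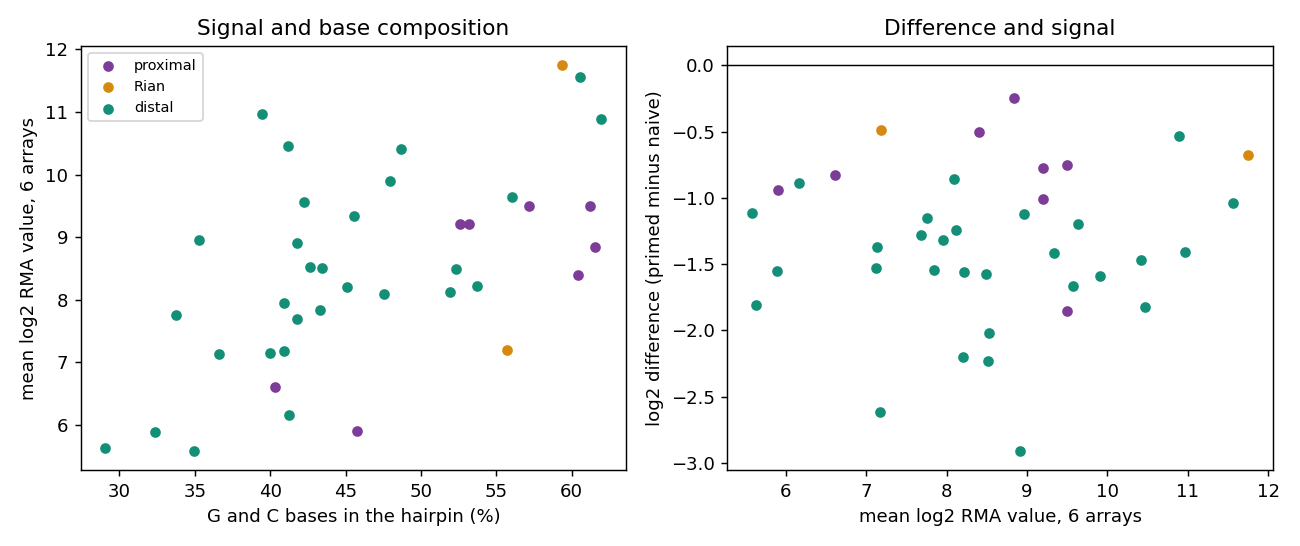
Left, mean log2 RMA value over 6 arrays against the percentage of G and C in the hairpin; right, log2 difference (primed minus naive) against the mean value; each point is 1 of the 39 genes, coloured by stretch. Signal was higher in G and C rich hairpins (Spearman 0.56), and the correlation of the difference with signal was 0.01.

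For these 39 genes the naive arrays were less alike than the primed ones. The SD was larger over naive arrays in 35 of the 39 genes, with a median SD of 0.10 over primed and 0.22 over naive arrays (n = 3 each). Naive replicate 3 held the highest value of all 6 arrays in 37 of the 39 genes. It was also the highest array for every measured gene of the miR-302 cluster, where the naive SD was the larger in all but Mir302d. The share of all genes with these patterns was not counted, and the 39 genes share the same arrays. The median over the 39 was 7.55 to 7.67 on primed arrays, and it was 8.95, 9.24 and 9.44 on naive replicates 1, 2 and 3. Without naive replicate 3 all 39 genes still passed.

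Of 17 genes for making or using microRNAs, 6 were higher and 4 lower in primed cells and 7 did not pass, where 21.8% of all genes were higher and 22.7% lower, and the median was 0.07. Dgcr8, the RNA-binding partner of Drosha in the complex that cuts hairpins from primary transcripts, had 10.07, 9.93 and 9.90 on primed arrays, against 11.05, 11.06 and 11.12 on naive arrays (difference -1.11, limma adjusted p = 5.0e-08), while Drosha (-0.08) and Dicer1 (0.02) did not pass. The Dicer partners moved apart, Prkra by 0.83 and Tarbp2 by -0.60, and the Argonaute gene Ago4, in background on naive arrays, rose by 0.63.

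Of 22 measured genes that maintain imprints or are known to act at this domain, 7 were higher and 9 lower in primed cells. The other 6 did not pass, and the median was -0.13. Over all genes tested 21.8% were higher and 22.7% lower. Dnmt3l, a cofactor of de novo DNA methylation, had 6.77, 6.42 and 6.56 on primed arrays, against 9.82, 9.87 and 9.64 on naive arrays (difference -3.19, limma adjusted p = 3.4e-10). Dppa3, which protects imprints in the early embryo and in mouse iPSCs has been tied to the state of this domain, had 6.07, 6.18 and 6.29 on primed arrays, against 9.10, 8.82 and 9.05 on naive arrays (difference -2.81). Both were in background on all primed arrays. Tet2, which oxidises methylated cytosine, rose by 0.95 and the methyltransferase gene Dnmt3a by 0.82, while Zfp57 (0.19) and Trim28 (-0.34), which guard imprints, passed with smaller differences. Methylation was not measured.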

How the data were processed

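The deposited log2 values are RMA (robust multi-array average) output; Partek 6.6 is the tool that the submitters' processing notes name. The RMA options, the genome build and detection calls: not given in the sources used here. Medians of the arrays ran from 7.77 to 7.83 over 35556 probe sets, and the number of arrays limits the precision. Gene names came from the platform annotation in GEO, where 21789 probe sets have 1 gene symbol, 1621 have several and 12146 are unnamed here; 21698 of the first kind were matched by gene ID to RefSeq (GRCm38.p6), which gave symbols and gene order. The brightest probe set stood for each of 19938 genes. The comparison of primed with naive arrays used limma 3.58.1 under R 4.3.3 (functions lmFit and eBayes; two-sided, no covariates, Benjamini-Hochberg over all genes, threshold 0.05), a script tested on simulated data. Python 3.11.15 made the summaries. The members and lists were chosen with earlier results of these data known, so their counts are not independent support. Values on every array are given for the 16 members with the largest differences, the 6 brightest and the long RNAs. From other lists some, but not all, of the genes with the largest differences were named. Other genes were named after their values were seen.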

Additional observations from a re-analysis of the deposited data

How the results depend on the processing

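All 39 microRNA genes were lower in primed cells in every fit that tested all of them at an adjusted p under 0.05, except with arrays centred on other microRNA genes, where 38 passed and Mir673 did not (-0.21, limma adjusted p = 0.073). A required size of at least 0.5 left 37. The 40th percentile filter, set on the mean level over primed and naive arrays together, tested 29, all of which passed. Mir496a, Mir541, Mir411 and Mir539 had primed means of 7.04, 7.06, 7.10 and 7.18. These lie below the mean over all arrays of Mir370 (7.19), which the filter left out. Those genes entered only through their naive values, so the count of 29 depends in part on the difference being tested. Over the members and long RNAs, 648 of 649 refitted differences kept direction and call. Leaving out each array in turn gave 39 calls each time and a median of -1.45 to -1.19, with -0.87 to -0.70 for proximal, -0.71 to -0.50 for Rian and -1.54 to -1.33 for distal genes. Among other microRNA genes, keeping genes with a mean level at or above the 40th percentile left 66, and this gave 8 higher and 17 lower calls. With the replicate number as a block, although same-numbered arrays did not deviate together (correlations -0.11, 0.00 and -0.02), 39 microRNA genes passed, with 4172 higher and 4344 lower over all genes. The fit over all probe sets was chosen after the data were seen. The arrays give no counts, so low signal was read against receptor genes and against the brightest tissue-restricted microRNA gene. On every naive array 33 members were above background, 30 with the 99th percentile and 28 with the tissue-restricted gene as cutoff. On every primed array the counts were 27, 17 and 16. The tissue-restricted gene, Mir150, was itself higher in primed cells (0.28), so that cutoff was 8.21 to 8.28 on primed and 7.85 to 8.15 on naive arrays.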
